A study of Homo sapiens with 4 samples.

Results

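Binding of 2 basic helix-loop-helix (bHLH) transcription factors, ATOH8 and TCF3, was examined at the 5 genes that control the sterol regulatory element-binding proteins (SREBPs): SREBF1, SREBF2, SCAP, INSIG1 and INSIG2. All 5 were chosen by name, and all 5 were found among 19974 protein-coding genes on chromosomes 1 to 22 and X. A peak was assigned to a gene when its midpoint lay inside the gene or within 50 kb of it by RefSeq position. The peak lists came from ChIP-seq, the sequencing of chromatin pulled down with an antibody. The cells were DU145, a line grown from a human prostate cancer, with 1 Flag immunoprecipitation for ATOH8, 1 Myc immunoprecipitation for TCF3 and 1 input library for each, 4 libraries in all. The labels describe cells fixed in 1% formaldehyde for 10 min and give neither a genotype nor a treatment, nor how the tagged proteins were expressed. No group had a replicate, so no value has an error from replicates and no difference was tested. The inputs were not analysed here.

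SREBPs are themselves bHLH proteins, of the leucine zipper class, that begin life as membrane proteins of the endoplasmic reticulum. SCAP escorts them to the Golgi, where proteases release the part that enters the nucleus and switches on genes of fatty acid and cholesterol synthesis and uptake. INSIG1 and INSIG2 bind SCAP when sterols are plentiful and hold the complex in the endoplasmic reticulum. The series title concerns repression of the desaturase gene SCD, a textbook target of SREBP1, so the question here was where either factor was listed at the genes upstream of such targets.

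Of the 4997 ATOH8 peaks, 6 were assigned to the 5 genes, and of the 11390 TCF3 peaks, 1 was. ATOH8 was listed at 4 of 5 genes (SREBF1, SREBF2, SCAP and INSIG1), against 43.6% of all protein-coding genes at the same distance (Wilson 95% interval 42.9 to 44.3%, for the counting of genes). TCF3 was listed at 1 of 5 genes, INSIG1, against 53.7% of all protein-coding genes (53.0 to 54.4%). INSIG1 was therefore the gene with both factors, 1 of 5, against 28.1% of protein-coding genes. INSIG2 had no listed peak of either factor. When only the higher-ranked 50% of each list was kept, ATOH8 remained at 2 of the 5 genes, SREBF1 and SCAP, against 27.1% of protein-coding genes. Both factors were then listed at 0 of the 5. No share over all protein-coding genes is given for that count, so it is not read as a result about the 5 genes. The peaks kept at SREBF1 and SCAP were those away from their start sites.

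The sequences around the start sites show where the peaks fell. Each line below is a RefSeq promoter window (GRCh38.p14) of 250 bases before and 50 bases from the start site on, 5′ to 3′ on the gene's strand, with E-boxes (CANNTG, the short core that bHLH dimers bind) in capitals. The windows of SREBF1, SCAP and INSIG1 lay under an ATOH8 peak, and those of SREBF2 and INSIG2 did not.
SREBF1, chr17:17836937-17837236, minus strand: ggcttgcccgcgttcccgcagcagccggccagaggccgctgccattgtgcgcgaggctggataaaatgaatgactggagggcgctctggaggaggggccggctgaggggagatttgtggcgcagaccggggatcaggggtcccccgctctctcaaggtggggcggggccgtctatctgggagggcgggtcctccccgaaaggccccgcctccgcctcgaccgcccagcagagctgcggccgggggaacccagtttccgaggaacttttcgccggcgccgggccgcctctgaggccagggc
SREBF2, chr22:41832855-41833154, plus strand: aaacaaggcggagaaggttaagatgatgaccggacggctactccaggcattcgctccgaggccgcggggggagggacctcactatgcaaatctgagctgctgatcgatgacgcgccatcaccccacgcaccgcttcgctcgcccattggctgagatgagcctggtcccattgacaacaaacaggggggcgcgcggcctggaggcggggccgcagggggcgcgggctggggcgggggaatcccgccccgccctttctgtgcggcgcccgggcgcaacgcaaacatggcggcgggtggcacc
SCAP, chr3:47475892-47476191, minus strand: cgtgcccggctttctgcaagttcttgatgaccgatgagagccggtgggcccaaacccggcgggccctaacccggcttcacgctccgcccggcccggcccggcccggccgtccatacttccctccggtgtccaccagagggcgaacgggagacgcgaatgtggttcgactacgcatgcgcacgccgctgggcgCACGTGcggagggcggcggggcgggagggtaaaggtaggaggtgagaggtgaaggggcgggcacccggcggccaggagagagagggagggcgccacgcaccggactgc
INSIG1, chr7:155297628-155297927, plus strand: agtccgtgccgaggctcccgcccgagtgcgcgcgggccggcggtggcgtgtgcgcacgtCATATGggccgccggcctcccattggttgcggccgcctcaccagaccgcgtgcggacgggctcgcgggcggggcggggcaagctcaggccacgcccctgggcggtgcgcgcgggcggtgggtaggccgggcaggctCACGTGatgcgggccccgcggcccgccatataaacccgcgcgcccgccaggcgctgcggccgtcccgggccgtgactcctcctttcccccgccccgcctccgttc
INSIG2, chr2:118088221-118088520, plus strand: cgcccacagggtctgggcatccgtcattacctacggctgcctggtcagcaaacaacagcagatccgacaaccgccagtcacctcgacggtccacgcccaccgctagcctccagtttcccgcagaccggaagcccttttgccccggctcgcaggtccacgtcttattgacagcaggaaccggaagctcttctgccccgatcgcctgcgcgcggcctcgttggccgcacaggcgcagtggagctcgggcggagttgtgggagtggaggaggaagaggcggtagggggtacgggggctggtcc

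ATOH8 peaks shared at least 1 base with the promoter window at 3 of 5 genes. Among 15812 protein-coding genes with a window in the table, 16.6% had an ATOH8 peak there. The ATOH8 peaks covered 300 of 300 bases at SREBF1, 251 of 300 at SCAP and 300 of 300 at INSIG1. A TCF3 peak covered 300 of 300 bases at INSIG1, which made 1 of 5 genes, against 16.2% of protein-coding genes. Windows with a peak of both factors were found at 1 of 5 genes and at 4.47% of protein-coding genes. With only the higher-ranked 50% of each list, 0 of 5 windows had an ATOH8 peak, against 9.08% of protein-coding genes, and 1 of 5 had a TCF3 peak, against 10.5%.

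**Figure D1:**
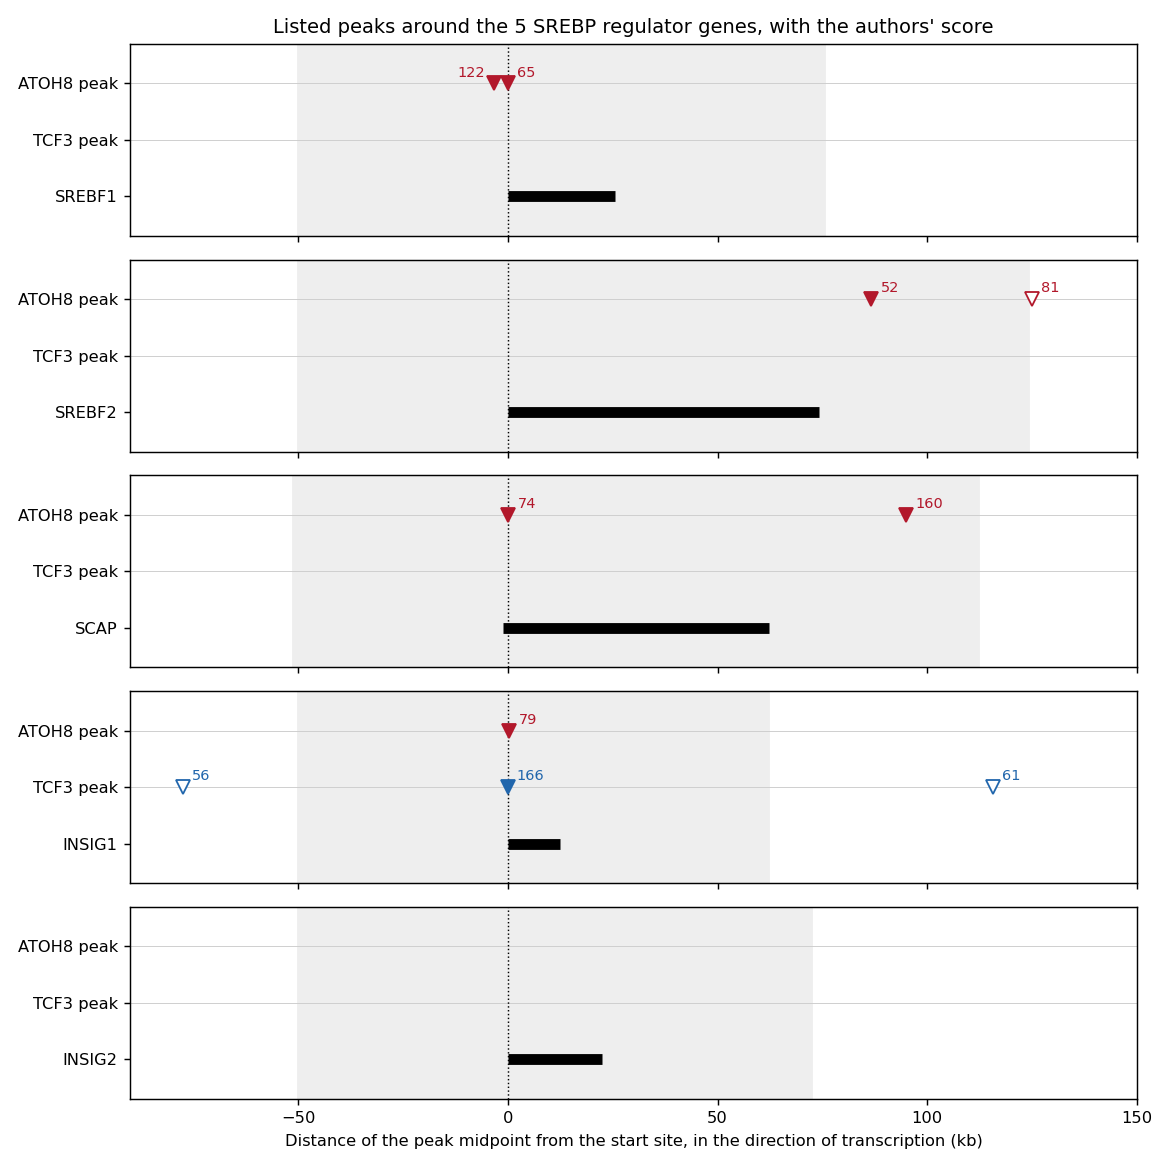
Peaks around each of the 5 genes. The horizontal axis is the distance of the peak midpoint from the start site in kb, in the direction of transcription. Black bars are the genes, grey areas are the gene with 50 kb on each side, triangles are peaks (ATOH8 above TCF3) with the authors' score beside them, and open triangles lie outside the grey area. ATOH8 triangles sit at the start sites of SREBF1, SCAP and INSIG1, the single filled TCF3 triangle sits at INSIG1 (score 166), and the INSIG2 panel is empty.

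SREBF1 (gene ID 6720, chromosome 17, 17811334 to 17836986, minus strand, hg38) encodes SREBP1, the form best known for driving fatty acid synthesis. It had 2 ATOH8 peaks, as did SCAP, so 2 of 5 genes had 2 or more, against 17.4% of protein-coding genes. The first, from 17836440 to 17837376, spanned the start site, with its midpoint 78 bp inside the gene. Its score, a number given by the authors without a definition in the sources used here, was 65, above 25.8% of the ATOH8 list (rank 3559). The second, from 17839740 to 17840732, lay 3250 bp before the start site, outside any annotated gene, with a score of 122 (rank 1168, above 76.3% of the list). The higher score was thus away from the start site. This second peak was 3275 bp from TOM1L2, so it was about as close to that gene as to SREBF1, at the end of TOM1L2 opposite to its promoter window. The nearest TCF3 peak was 769 kb from SREBF1, and 94.9% of protein-coding genes had a nearer one.

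SREBF2 (gene ID 6721, chromosome 22, 41833105 to 41907305, plus strand) encodes SREBP2, the form best known for driving cholesterol synthesis. Its start site had no listed peak of either factor. The ATOH8 peak assigned to it, from 41919433 to 41920129, lay 12476 bp beyond the 3′ end of the gene and 86676 bp from the start site. It was nearer to TNFRSF13C, a receptor gene of B lymphocytes (2251 bp), and to SHISA8 (4707 bp). Its score of 52 was above 1.18% of the ATOH8 list (rank 4782), where the lowest score listed was 51. Another ATOH8 peak, inside SMIM45 with a score of 81, lay 50769 bp from SREBF2, just outside the 50 kb limit. The nearest TCF3 peak was 222 kb away, and 80.6% of protein-coding genes had a nearer one.

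SREBF1 and SREBF2 each hold a miR-33 gene, background to why both loci are of interest: miR-33 is known to repress the cholesterol exporter ABCA1. The mature 5p sequences from RefSeq (GRCh38.p14) are shown because they share 1 seed (bases 2 to 8, in capitals).
hsa-miR-33a-5p, chr22:41900949-41900969, plus strand: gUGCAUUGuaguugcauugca
hsa-miR-33b-5p, chr17:17813897-17813916, minus strand: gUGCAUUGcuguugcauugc

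No peak of either factor lay inside either miRNA gene. The nearest ATOH8 peak had its midpoint 18769 bp from MIR33A, in SREBF2, and 22977 bp from MIR33B, in SREBF1. A further miRNA gene inside SREBF1, MIR6777, was 23363 bp from its nearest ATOH8 peak. The nearest TCF3 peaks were 228342 bp from MIR33A and 771087 bp from MIR33B. In each case the ATOH8 distance is that of a peak already described at the host gene.

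SCAP (gene ID 22937, chromosome 3, 47413681 to 47477127, minus strand) encodes the escort protein and sterol sensor of the pathway. The start site used, that of its promoter window in the table, is position 47475941, which lies inside the gene and not at its annotated 5′ end. An ATOH8 peak from 47475473 to 47476142 spanned this start site, with the midpoint 134 bp downstream of it and a score of 74 (rank 2930, above 39.7% of the list). It did not reach the 5′ end of the gene. The second ATOH8 peak, from 47380247 to 47381593, scored 160 (rank 532, above 89.2% of the list), the highest ATOH8 score at the 5 genes. It lay 32761 bp beyond the 3′ end of SCAP and 101 bp from the start site of PTPN23, a phosphatase-family gene, which it spanned. Its midpoint was also inside PTPN23-DT, a long noncoding RNA gene. The nearest TCF3 peak was 102 kb from SCAP, and 66.2% of protein-coding genes had a nearer one.

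INSIG1 (gene ID 3638, chromosome 7, 155297878 to 155310235, plus strand) encodes the retention protein that SREBPs themselves switch on. Its ATOH8 peak ran from 155297328 to 155299088, with the midpoint 330 bp inside the gene, and scored 79 (rank 2658, above 45.9% of the list). Its TCF3 peak ran from 155297027 to 155298625, with the midpoint 52 bp before the start site, and scored 166 (rank 635, above 93.7% of the TCF3 list). The position within the list was thus higher for TCF3 than for ATOH8. Both peaks were wide: the ATOH8 peak measured 1760 bp and was wider than 95.8% of its list, and the TCF3 peak measured 1598 bp and was wider than 88.0% of its list. Both midpoints also lay inside INSIG1-DT, a long noncoding RNA gene on the opposite strand that overlaps the first part of INSIG1, so the peaks cannot be given to one gene over the other.

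The INSIG1 peaks were the shared pair of the 5 genes. They overlapped over 1297 bp, from 155297328 to 155298625, which was 73.7% of the ATOH8 peak and 81.2% of the TCF3 peak. Among 1441 overlapping pairs in the 2 lists the median overlap was 562 bp, and 94.3% of pairs overlapped over fewer bases. The midpoints were 382 bp apart, and 74.2% of pairs had closer midpoints (median 188 bp). The pair was thus long in overlap and not centred. Wide peaks leave room for a long overlap, and the pair was not compared with pairs of like width. Of the 6 ATOH8 peaks at the 5 genes, 1 was shared, where 28.8% of the ATOH8 list and 12.5% of the TCF3 list were shared.

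INSIG2 (gene ID 51141, chromosome 2, 118088471 to 118110997, plus strand) encodes the second retention protein. The nearest ATOH8 peak, with a score of 83, was 274 kb away and the nearest TCF3 peak, with a score of 44, was 552 kb away. Of all protein-coding genes, 74.6% had a nearer ATOH8 peak and 92.4% a nearer TCF3 peak. Within 1 Mb of INSIG2 the lists held 1 ATOH8 peak and 3 TCF3 peaks, against medians of 5 and 8 over all protein-coding genes. Peaks of both lists were thus sparse around INSIG2. The absence of a peak here is a statement about the lists and not about binding, since depth is unknown and whether the lists are complete was not tested.

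The surroundings of the other 4 genes differed in their counts of each factor. INSIG1 had 1 ATOH8 peak, its own, and 16 TCF3 peaks within 1 Mb. SREBF1 had 5 ATOH8 and 4 TCF3 peaks, SREBF2 had 11 and 4, and SCAP had 12 and 5. At SREBF2 and SCAP the ATOH8 counts were above the median of 5 and the TCF3 counts below the median of 8. At SREBF1 the ATOH8 count equalled its median and the TCF3 count was below its median. At INSIG1 the ATOH8 count was below its median and the TCF3 count above.

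**Figure D2:**
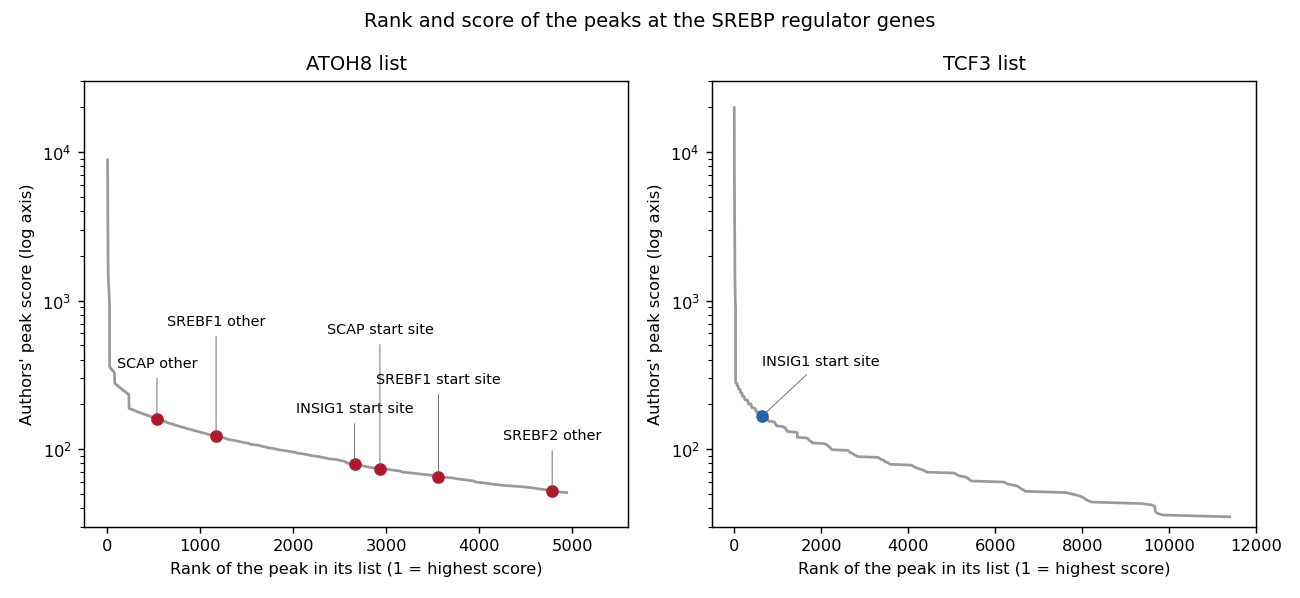
Rank (horizontal axis, 1 is the highest score) and authors' score (vertical axis, log scale) of the peaks at the 5 genes, over the grey curve of all peaks in the ATOH8 list (left) and the TCF3 list (right). Points named start site share at least 1 base with the gene's promoter window. The ATOH8 points at start sites fall in the lower-ranked part of the list (ranks 2658 to 3559), and the TCF3 point at INSIG1 falls near the top (rank 635).

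Scores were compared only within a list. The 3 ATOH8 peaks at start sites of the 5 genes scored 65, 74 and 79, all under the median of 88 over the 2449 ATOH8 peaks on promoter windows of protein-coding genes. They were above 21.7%, 35.4% and 41.6% of those peaks. The TCF3 peak at INSIG1, at 166, was above 91.4% of the 2463 TCF3 peaks on such windows, whose median was 76. The 2 highest ATOH8 scores, 160 and 122, belonged to peaks away from the start sites of the 5 genes.

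Short sequence words were searched in the windows on both strands, as a description of the letters and not of binding. The E-box word was found once in the SCAP window, at position -58 from the start site (the base at the start site counts as 0), and 2 times in the INSIG1 window, at -191 and -55. All 3 lay under the ATOH8 peak of their gene, and those of INSIG1 also lay under the TCF3 peak. At INSIG1 this followed from the coverage, since each peak covered all 300 bases of the window. At SCAP the ATOH8 peak covered 251 of 300 bases, so most words there would lie under it. At -58 in SCAP and at -55 in INSIG1 the word read CACGTG, a form that SREBPs and other leucine zipper bHLH proteins can bind. The other INSIG1 word, further upstream, read CATATG. The form shared by SCAP and INSIG1 was found in 8.34% of 22132 windows of protein-coding genes. It was found in 11.2% of the 3130 windows under an ATOH8 peak and in 9.08% of those under a TCF3 peak. E-boxes of any form were found in 65.1% of the windows of protein-coding genes, in 62.7% of those under an ATOH8 peak and in 54.1% of the 3017 under a TCF3 peak. No E-box stood in the windows of SREBF1, SREBF2 and INSIG2. The E-box form CAGCTG stood in no window of the 5 genes. It was found in 18.0% of windows of protein-coding genes, in 22.7% of those under an ATOH8 peak and in 15.5% of those under a TCF3 peak.

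The core of the sterol regulatory element, searched as TCACNCC, stood at -133 in the SREBF2 window and, on the opposite strand, at -11 in the second INSIG2 window, which overlaps the one printed and starts further downstream. It was found in 16.2% of windows of protein-coding genes. The NF-Y word CCAAT stood on the opposite strand at -106 in SREBF2 and at -170 in INSIG1 (34.6% of windows). GC boxes (GGGCGG, bound by SP1) stood 3 times in SREBF1, 3 times in SREBF2, 4 times in SCAP, 6 times in INSIG1 and 1 time in each INSIG2 window. They were found in 56.3% of windows of protein-coding genes, in 82.5% of those under an ATOH8 peak and in 78.9% of those under a TCF3 peak. The windows of the 5 genes were 66.0 to 78.3% G and C, against a median of 62.3% over protein-coding windows and 70.7% over those under an ATOH8 peak. INSIG1, the gene with both factors, had the highest G and C content and the most E-boxes and GC boxes of the 5. The median number of E-boxes was 1 over protein-coding windows, and also 1 over those under either factor. A link of these words to the peaks was not tested.

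**Figure D3:**
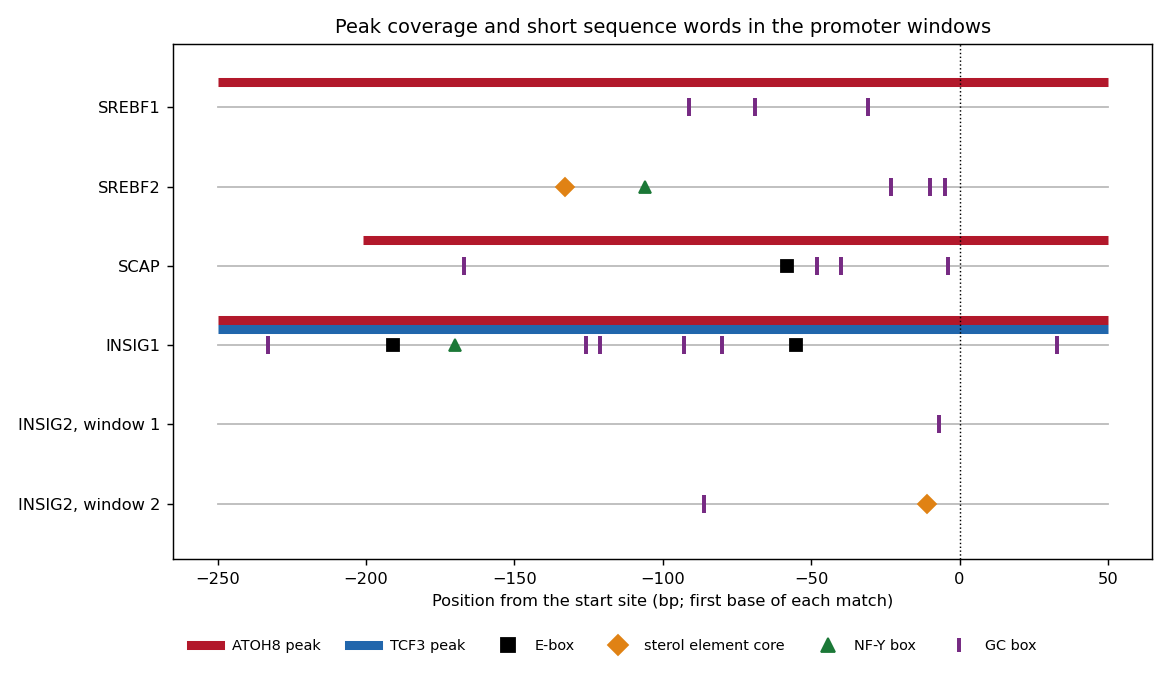
Promoter windows of the 5 genes. The horizontal axis is the position from the start site in bp, thick lines are the parts covered by an ATOH8 or a TCF3 peak, and symbols mark the first base of each word found. The INSIG1 window is wholly covered by a peak of each factor, so every word in it lies under both. The E-box of SCAP lies under the ATOH8 peak, and the SREBF1 window is covered by an ATOH8 peak without an E-box.

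The other genes of the pathway were examined in 5 lists of 72 genes, by peaks with a midpoint inside the gene or within 5 kb. At this distance ATOH8 was listed at 3 of 5 SREBP regulators and at 25.1% of all protein-coding genes, and TCF3 at 1 of 5 and at 32.9%. Both factors were listed at 1 of 5 regulators and at 11.8% of all protein-coding genes. Among 13 genes for Golgi cleavage and export of SREBPs, 6 had an ATOH8 peak and 4 a TCF3 peak. The highest ATOH8 scores there were at MBTPS1, the site-1 protease that makes the first cut in SREBPs (178), and at SEC24A (138) and SEC24D (121), coat proteins of vesicles that leave the endoplasmic reticulum. The TCF3 scores were highest at MBTPS1 (105), SAR1A, a coat-recruiting GTPase (75), and SEC23A (63). Both factors were listed at 3 of these 13 genes, against the 11.8% of all protein-coding genes.

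Among 10 genes for ubiquitination and degradation in this pathway, 5 had an ATOH8 peak, against 25.1% of all protein-coding genes. The highest scores were at UBE2G2, a ubiquitin-conjugating enzyme (250), VCP, the ATPase that extracts proteins from the membrane (166), and SYVN1, a ubiquitin ligase (119). The same list had 3 genes with a TCF3 peak, against 32.9% of all protein-coding genes. They were VCP (79), SYVN1 (45) and RNF139, another ligase (36, where the lowest TCF3 score listed was 35). Both factors were listed at 2 of the 10, against 11.8% of all protein-coding genes. Among 12 cofactors and upstream nuclear receptors, 4 had an ATOH8 peak, against the same 25.1%. The highest scores were at the coactivators CREBBP (147) and MED15 (132) and at NR1H3, the sterol-sensing receptor LXR alpha (94). TCF3 was listed at 6 of the 12, against the same 32.9%. NFYB and NFYA, subunits of the SREBP partner NF-Y (166 and 89), and LPIN1, a phosphatidate phosphatase gene (110), were highest. Both factors were listed at 1 of the 12, against the same 11.8%.

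SREBP target genes had an ATOH8 peak in 6 of 17 cases, against 25.1% of all protein-coding genes. The 6 included LSS, the lanosterol synthase gene, with the highest score (116), and SQLE, the squalene epoxidase gene (72). TCF3 was listed at 7 of the 17, against 32.9% of all protein-coding genes. FASN, the fatty acid synthase gene (95), and the mevalonate pathway genes MVD (69) and FDPS (52) were highest. LSS was the target gene of the list with both factors, 1 of 17, against the same 11.8%. Of 20 other bHLH leucine zipper genes, relatives of SREBF1 and SREBF2, 11 had an ATOH8 peak, against 25.1% of all protein-coding genes. MYCL (158), TFEB (149) and USF1 (138) scored highest. TCF3 was listed at 7 of the 20, against 32.9%, led by MYCN (190), MXD4 (131) and USF2 (120). Both factors were listed at 2 of the 20, against 11.8%.

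**Figure D4:**
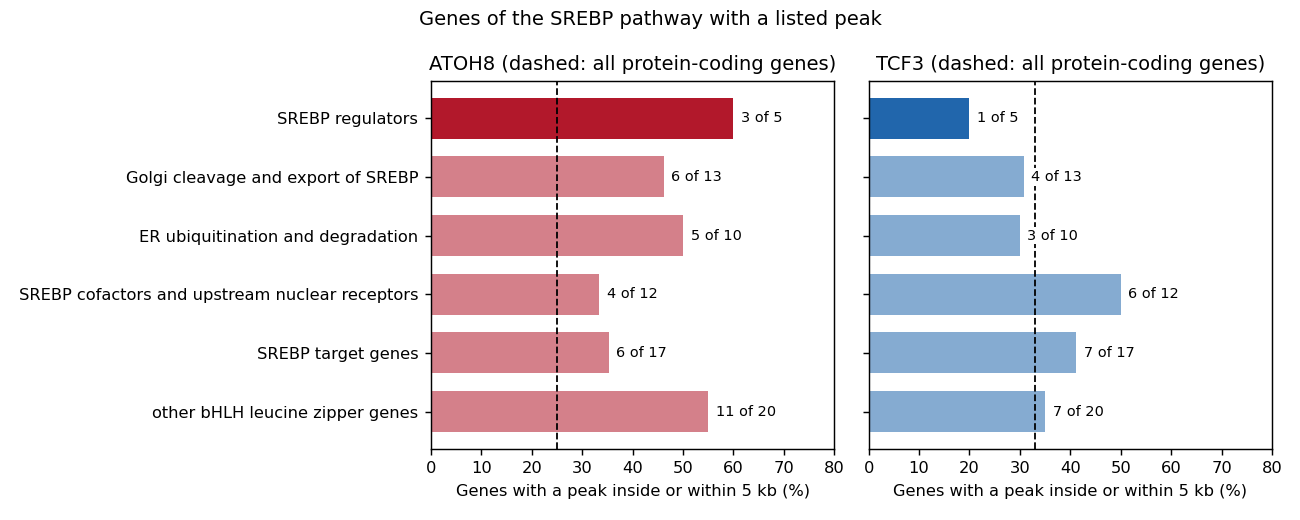
Percentage of genes with a peak inside or within 5 kb (horizontal axis) in the SREBP regulators and 5 other lists, for ATOH8 (left) and TCF3 (right), with the counts beside the bars. The dashed line marks all protein-coding genes (25.1% for ATOH8 and 32.9% for TCF3). The ATOH8 bars all end beyond the line and the TCF3 bars lie on either side of it.

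Median highest scores within 5 kb were 79 for ATOH8 at the 3 regulators with a peak, 119.5 at the 6 Golgi genes, 119 at the 5 degradation genes, 113 at the 4 cofactor genes, 70 at the 6 target genes and 74 at the 11 bHLH leucine zipper genes. The median over all protein-coding genes with an ATOH8 peak was 89. For TCF3 the medians were 69, 45, 87, 48 and 109 in the same 5 lists, against 70 over all protein-coding genes with a TCF3 peak. None of these counts or medians was tested, so none shows a list to stand apart from other genes.

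Of the 72 list genes, the one most like each regulator was found from the percentile of its highest peak within 50 kb in both lists, 0 where none was listed, by the summed difference over the 2 lists. SEC24D was nearest to SREBF1, with an ATOH8 score of 121 and no TCF3 peak (summed difference 0.580 percentage points). MYCL was nearest to SCAP, with an ATOH8 score of 158 and no TCF3 peak (0.600). This match rests on the SCAP peak of score 160 at the PTPN23 start site, and not on the start-site peak of SCAP (74). An ATOH8 peak lay on the MYCL promoter window, but whether it was the one of score 158 was not checked. MXD4 was nearest to INSIG1, with an ATOH8 score of 81 and a TCF3 score of 131 (8.32). This match is by score and not by place. The ATOH8 peak of MXD4 had its midpoint more than 5 kb from the gene, and its TCF3 peak was within 5 kb. At INSIG1 the peaks of both factors covered the whole promoter window. For INSIG2 the nearest were 12 tied genes with no peak within 50 kb in either list (summed difference 0). The same 12 genes were nearest to SREBF2 (1.18), although SREBF2 had an ATOH8 peak. That peak was above only 1.18% of the ATOH8 list, close to the 0 given where none was listed. These likenesses rest on 2 libraries.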

How the data were processed

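Peak lists from 1 ATOH8 and 1 TCF3 immunoprecipitation in DU145 cells were used, each matched to its factor by the name of the table. Each peak has a position and a score, used as deposited by the authors. The genome build is hg38, per the submitters' processing notes. The aligner, peak caller, threshold, definition of the score, use of the inputs and base of the coordinates (0 or 1) were not stated in the labels or tables. Depth is unknown, and no interval covers it. Lines without a peak numbered 3 in the ATOH8 list and 5 in the TCF3 list, and consecutive scores jumped from 996 to 356 and from 232 to 189 (ATOH8) and from 887 to 280 (TCF3). Whether peaks are missing there was not tested.

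Genes, start sites and sequences came from RefSeq tables of GRCh38.p14, which numbers chromosomes 1 to 22 and X as hg38 does. The promoter table covered 15812 of 19974 protein-coding genes and all 5 SREBP regulators. Peaks were assigned by midpoint, widths are end minus start, and tied scores share the best rank. Shared peaks had at least 1 bp in common. Shares of genes have Wilson 95% intervals. The counting was tested on simulated data.

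The members and lists were chosen with earlier results of these data known. Named are the 5 regulators with every peak within 50 kb, the genes nearest to those peaks, the 3 highest genes per list and factor, the most alike list gene, and miRNA genes inside a regulator; some genes that this rule names are not reported here. Computations used Python 3.11.15, numpy 2.4.6, pandas 2.3.3 and matplotlib 3.10.9. Alternatives were windows of 5, 10 and 100 kb, any shared base, the higher-ranked 50% of peaks, equal numbers of peaks, lists without the top 1% of scores, other overlap rules and all annotated genes. Placement by promoter window, also with the higher-ranked 50% of peaks, was added after seeing the data.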

Additional observations from a re-analysis of the deposited data

How the results depend on the processing

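No paired analysis was possible because each factor had 1 immunoprecipitation library, and for the same reason no replicate could be left out. With the higher-ranked 50% of peaks, ATOH8 was listed at 2 of the 5 genes with 2 peaks, and 0 of the 5 had both factors. No share over all protein-coding genes is given for the count with both factors. Within 100 kb, 2 TCF3 peaks were assigned to the 5 genes, both to INSIG1. TCF3 was thus still listed at 1 of the 5, against 65.9% of protein-coding genes. With midpoints within 200 bp as the rule for sharing, 0 of the ATOH8 peaks at the 5 genes were shared with TCF3. No share of the whole ATOH8 list is given under this rule. Within 5 or 10 kb ATOH8 was listed at 3 of the 5 genes, with 4 peaks, and within 100 kb it had 7 peaks. Assigning peaks by any shared base, taking equal numbers of peaks or leaving out the top 1% of scores changed no count at the 5 genes. The share of protein-coding genes with an ATOH8 and with a TCF3 peak was 28.0 and 36.4% within 10 kb, 25.1 and 32.9% within 5 kb, 55.5 and 65.9% within 100 kb, 27.1 and 33.9% with the higher-ranked 50% of peaks, 28.9 and 45.3% over all annotated genes, and 16.6 and 16.2% by promoter window. By promoter window with the higher-ranked 50% of peaks these shares were 9.08 and 10.5%, and ATOH8 was listed at 0 of the 5 genes and TCF3 at 1. With equal numbers of peaks the TCF3 share was 30.4%. Smaller windows and fewer peaks lower these shares by construction. The unknown depth and the lack of replicates limit all counts.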

Other observations

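Peaks between 50 and 200 kb from the 5 genes were looked at after the values were seen. Around SCAP they fell at start sites of neighbours: an ATOH8 peak with a score of 73 had its midpoint 61 bp from the start site of KIF9, a kinesin gene, and a TCF3 peak with a score of 61 had its midpoint 82 bp from that of CSPG5. The ATOH8 peak in the outer surroundings of SREBF1 lay 37 bp from the start site of RAI1, a gene whose loss is known from Smith-Magenis syndrome (score 143). Beyond SREBF2, an ATOH8 peak with a score of 93 lay inside NDUFA6-DT, a long noncoding RNA gene, 182 bp from its start site and 343 bp from that of NDUFA6, a gene of respiratory complex I.

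Around INSIG1 the outer peaks, 5 in number, were all from the TCF3 list. A peak of 2904 bp with a score of 99 lay 850 bp from the start site of EN2, a homeobox gene, and was wider than 98.1% of the TCF3 list. Another, with a score of 133, lay 108 bp from the start site of CNPY1. One with a score of 36, where the lowest TCF3 score listed was 35, lay inside the long noncoding RNA gene EN2-DT. The remaining peaks lay outside any annotated gene. One, with a score of 61, was 44630 bp from EN2, its nearest protein-coding gene. The other, with a score of 56, lay 77555 bp before INSIG1, its nearest protein-coding gene. The INSIG1 peak itself had a higher score (166) than any of these.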
